A study of Mus musculus with 8 samples.

Results

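The 45 genes described here encode the machinery that prepares and copies DNA at the start of S phase, from the MCM2-7 helicase to the polymerases, the enzymes that make deoxynucleotides and the E2F factors. They were chosen by gene name, as known members of that machinery, out of 53647 genes in the table. Earlier results of these data were known when the choice was made. All 45 had counts in every library, between 19 (Fen1) and 3594 (E2f2), and all 45 were among the 13412 genes that passed the filter on low counts.

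PolyA RNA had been sequenced from 8 samples of leukemia macrophages from C57BL/6 mice, sorted after 12 h in culture. The 4 E-Mac samples (MSC-educated macrophages) had been cultured together with mesenchymal stromal cells (MSC, fibroblast-like connective-tissue cells), and the 4 Mac samples had been cultured alone. The leukemia model, the gate of the sort and the source of the MSC were not given in the sources used here. Nor do the labels say whether a group's libraries stem from different cultures or animals, so the p-values speak only to the spread among these libraries, and that spread may be technical. Total counts were 13377046 to 15740846 in E-Mac and 11646025 to 15556935 in Mac. Levels are given as CPM, counts per 1000000 counts of a library after scaling. A log2 fold change is E-Mac over Mac with its standard error, and a gene was called higher or lower where edgeR's quasi-likelihood test with Benjamini-Hochberg adjustment over all 13412 genes gave an adjusted p under 0.05.

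In G1 the origin recognition complex, Cdc6 and Cdt1 load rings of MCM2-7 onto DNA, a step called licensing that geminin (Gmnn) blocks once S phase has begun. Cyclin E with CDK2, together with a further kinase, then turns the loaded rings into active helicases by adding Cdc45 and the GINS complex, and primase, polymerases, the PCNA clamp and its RFC loader copy both strands behind them. Many of these genes are transcribed under E2F factors, which the retinoblastoma family holds back in resting cells. Mature macrophages divide little in most settings, whereas their marrow precursors and leukemia cells divide often.

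Of the 45 genes, 24 were lower and 4 were higher in E-Mac, and 17 did not pass the test. Of all genes tested 58.3% were called, 28.8% lower and 29.5% higher. The members had a median log2 fold change of -0.23 (range -1.57 to 0.90), against -0.0030 over all genes tested. By 2-fold or more 9 members were lower, namely E2f8, E2f2, Prim1, Tyms, Rrm2, Gins3, Pole, Tk1 and Cdc45, while 10.5% of all genes were called lower by that much. The 4 higher members were Orc1, Cdt1, Gins2 and Rfc2. In 22 members each E-Mac library was lower than each Mac library, which held for 27.2% of all genes, and in 2 (Gins2 and Rfc2) each was higher, which held for 26.7%. The remaining 21 overlapped.

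By role, lower calls made up 5 of 6 cyclin E, CDK2 and E2F genes, 4 of 5 genes of deoxynucleotide supply and 6 of 8 genes of the polymerases and their partners, but 0 of 5 licensing genes and 1 of 6 clamp and clamp loader genes. No test was made between the roles. Summed over the 45 genes, the level was 1689 ± 268 CPM in E-Mac and 2318 ± 87.0 CPM in Mac (SD, n = 4 each).

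**Figure D1:**
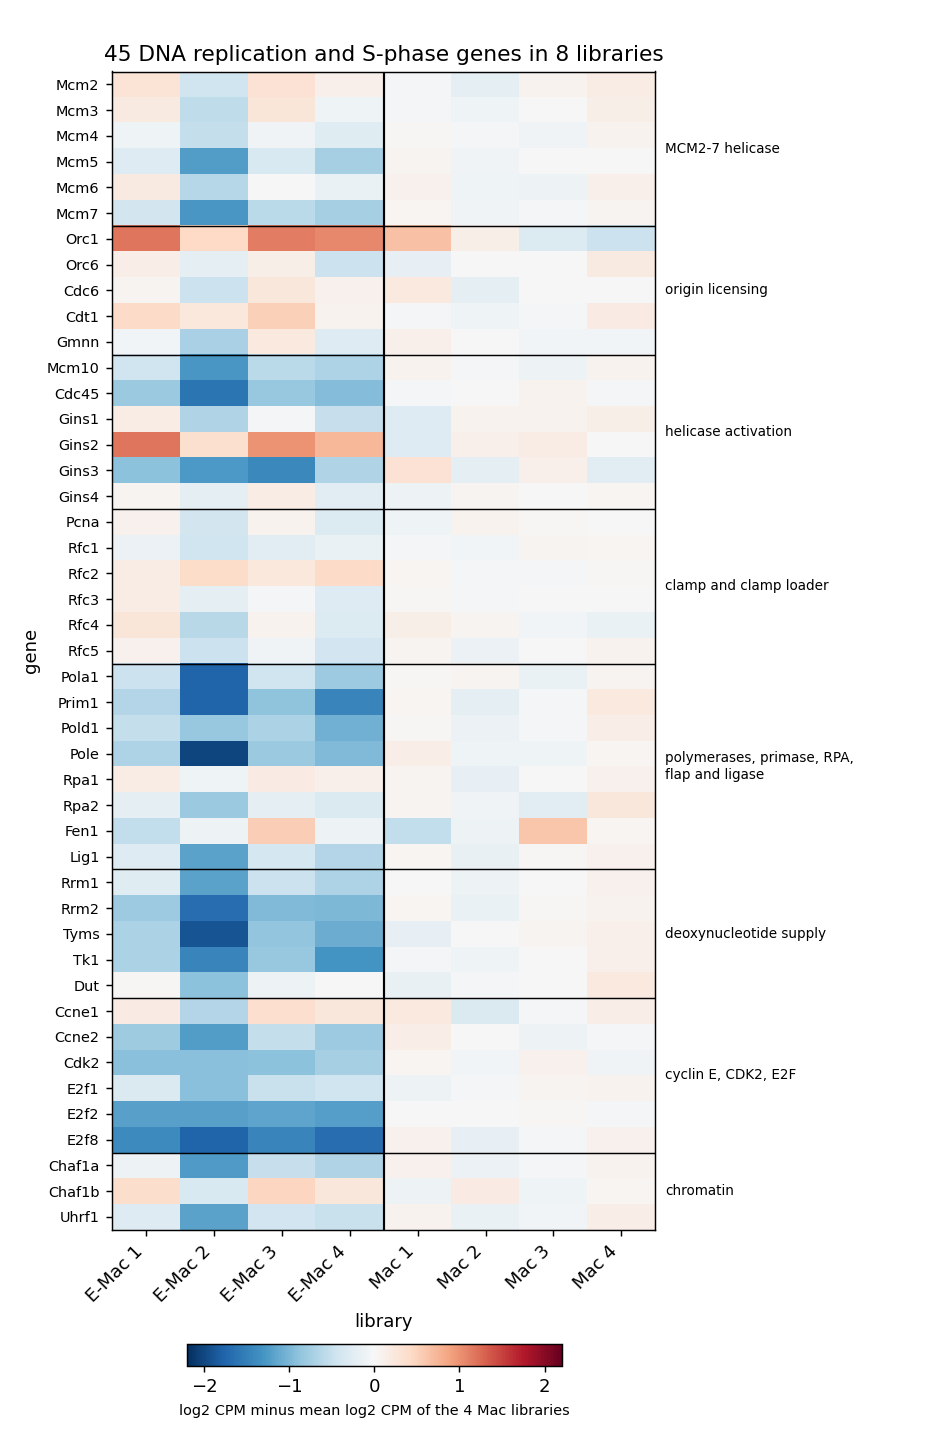
Level of each of the 45 genes (rows, grouped by role) in each library (columns, E-Mac left of Mac), drawn as log2 CPM minus the mean log2 CPM of the 4 Mac libraries. Blue is lower and red is higher than Mac; E-Mac 2 is the bluest column, with the lowest value of its group in 35 of 45 genes.

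The E-Mac libraries varied more than the Mac libraries. The coefficient of variation of CPM within a group had a median over members of 23.0% in E-Mac and 7.73% in Mac, and it was larger in E-Mac for 42 of 45 genes. E-Mac 2 was the lowest of the 4 E-Mac libraries in 35 members and the highest in 0, and E-Mac 1 was the highest in 28. E-Mac 2 and 4 both lay below both E-Mac 1 and 3 in 36 members. Over the 45 genes the summed level was 1925, 1328, 1858 and 1646 CPM in E-Mac 1 to 4, against 2207 to 2415 CPM in Mac. Without E-Mac 2 and E-Mac 4, 22 members were called lower and 8 higher.

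Markers of other cells also varied among the E-Mac libraries, though not all of them set E-Mac 2 and 4 apart from E-Mac 1 and 3. The 12 stromal markers, of which Col1a1 and Col1a2 were the most abundant, summed to 53.6, 338, 38.7 and 356 CPM in E-Mac 1 to 4, against 4.66 to 7.43 CPM in Mac; 5 of the 7 tested were higher in E-Mac, and Col3a1, Pdgfra and Lum were at 0 in Mac. The 12 late granulocyte markers, led by S100a9 and Ngp, summed to 10668, 17798, 11351 and 15142 CPM in E-Mac 1 to 4, against 32658 to 36385 CPM in Mac, with 9 lower and 2 higher in E-Mac. The 7 early granulocyte precursor markers summed to 495, 317, 496 and 484 CPM in E-Mac 1 to 4, against 573 to 707 CPM in Mac, with 3 lower and none at 0.

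Erythroid markers were also lower in E-Mac, and stem and progenitor markers were lower in sum but gave mixed calls. The 10 erythroid markers summed to 0.702 to 1.58 CPM in E-Mac, against 52.7 to 69.8 CPM in Mac, with all 6 tested lower and Hbb-bs, Hba-a1, Hba-a2 and Car1 among those at 0 in E-Mac. The 8 stem and progenitor markers, led by Myb and Flt3, summed to 64.2 to 90.4 CPM in E-Mac, against 133 to 152 CPM in Mac. Of these 8 genes, 4 were lower, 1 was higher and 3 did not pass. The higher one was Cd34, with every E-Mac library above every Mac library (log2 fold change 1.07 ± 0.17, adjusted p = 1.07e-04). The 15 macrophage markers, led by Lyz2 and Csf1r, summed to 8973 to 12389.7 CPM in E-Mac, against 13032 to 14094 CPM in Mac, with 8 higher and 3 lower and none at 0, so both groups carried the labelled cell type's markers together with granulocyte markers. The 6 B cell markers summed to 14.2 to 27.8 CPM in E-Mac, against 15.6 to 17.8 CPM in Mac, with 4 of the 5 tested higher and 1 lower (Ebf1 at 0 in Mac). The 8 T and NK cell markers summed to 3.71 to 5.46 CPM in E-Mac, against 15.9 to 20.9 CPM in Mac, with 3 of the 4 tested lower (Cd3e at 0 in both groups, Klrb1c at 0 in E-Mac and Cd3g at 0 in Mac). The part of these other cells in the replication gene results was not tested, and in bulk samples fewer cells of a type and less RNA per cell cannot be told apart.

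The promoters of several members carry E2F letters next to the start site, and the genes that carry them were called lower, higher and not at all. RefSeq promoter windows on GRCm38.p6, the assembly also called mm10, reach from 250 bases before to 50 bases after each start site, and 37 of the 45 genes had 1 or more (43 windows). The letters TTTCCCGC, TTTCGCGC, TTTGGCGC and TTTGCCGC, forms of the E2F motif, were searched on both strands. They stood in 15 of 43 member windows (34.9%) and in 2.26% of all 32851 windows. These 15 genes were 9 of the 21 lower genes with a window, both higher genes with a window (Orc1 and Cdt1) and 4 of 14 that did not pass. The letters CCAAT, bound by NF-Y, stood in 62.8% of member windows and 37.4% of all windows. TTTGAA, the CHR element of late cell cycle genes, stood in 14.0% of member windows and 17.9% of all windows. CCAAT shared bases with an E2F match in 1 member window, and TTTGAA did so with either in 0 of the 43. Such a match is a description of the letters and does not show binding.

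The promoters of 6 genes are printed. All but that of E2f8 set genes with like E2F letters and unlike calls side by side. Mcm5 was lower (chr8:75109309-75109508, plus strand), Mcm6 did not pass (chr1:128359706-128359905, minus strand) and Orc1 was higher (chr4:108579254-108579453, plus strand). Cdk2 was lower (chr10:128705052-128705251, minus strand), Cdc6 did not pass (chr11:98907951-98908150, plus strand) and E2f8 was the most reduced member (chr7:48881597-48881846, minus strand). Each printed promoter ends at the base before the start site and is written 5′ to 3′ on the gene's strand. Capitals mark E2F letters on either strand, overlapping matches joined, except in E2f8, where they mark CCAAT (read as ATTGG) and TTTGAA (read as TTCAAA).
Mcm5: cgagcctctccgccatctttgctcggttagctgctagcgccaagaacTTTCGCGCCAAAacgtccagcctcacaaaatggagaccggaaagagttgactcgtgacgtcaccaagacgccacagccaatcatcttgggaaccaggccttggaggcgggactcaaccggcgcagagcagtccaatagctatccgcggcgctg
Mcm6: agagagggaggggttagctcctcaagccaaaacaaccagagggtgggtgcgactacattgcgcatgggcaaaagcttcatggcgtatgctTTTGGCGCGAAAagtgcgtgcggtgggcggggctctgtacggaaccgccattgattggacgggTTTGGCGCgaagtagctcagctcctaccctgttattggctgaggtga
Orc1: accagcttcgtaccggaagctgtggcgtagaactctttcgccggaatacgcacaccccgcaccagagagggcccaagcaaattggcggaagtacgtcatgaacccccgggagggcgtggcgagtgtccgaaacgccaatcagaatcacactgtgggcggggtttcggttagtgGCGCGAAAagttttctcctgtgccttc
Cdk2: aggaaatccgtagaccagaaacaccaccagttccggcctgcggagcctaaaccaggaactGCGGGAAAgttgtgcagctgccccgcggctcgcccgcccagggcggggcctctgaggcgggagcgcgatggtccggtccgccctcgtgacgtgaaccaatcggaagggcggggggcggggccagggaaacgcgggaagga
Cdc6: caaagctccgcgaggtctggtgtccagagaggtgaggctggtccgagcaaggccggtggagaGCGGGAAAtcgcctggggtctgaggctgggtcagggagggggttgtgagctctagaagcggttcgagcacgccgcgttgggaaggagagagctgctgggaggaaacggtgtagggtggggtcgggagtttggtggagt
E2f8: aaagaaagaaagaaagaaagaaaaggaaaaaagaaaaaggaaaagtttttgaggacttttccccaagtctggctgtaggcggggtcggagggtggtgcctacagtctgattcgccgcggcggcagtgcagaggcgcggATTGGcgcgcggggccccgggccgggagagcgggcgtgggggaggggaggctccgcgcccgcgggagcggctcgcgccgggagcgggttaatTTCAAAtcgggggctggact
The run TTTCGCGCCAAA begins 153 bases before the start site of Mcm5, and its reverse complement, TTTGGCGCGAAA, begins 110 bases before that of Mcm6. Cdk2 and Cdc6 carry the same 8 letters, GCGGGAAA, at 140 and 138 bases before their start sites, and GCGCGAAA stands 27 bases before that of Orc1. None of the E2F forms searched was in the E2f8 window, which says only that those letters are absent there.

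Among the 6 genes of the MCM2-7 helicase, the ring that unwinds DNA ahead of the polymerases, Mcm4, Mcm5 and Mcm7 were lower in E-Mac and Mcm2, Mcm3 and Mcm6 did not pass the test. Their summed level was 419.9 ± 93.4 CPM in E-Mac and 509.6 ± 26.9 CPM in Mac (SD, n = 4 each), and their median log2 fold change was -0.17. Mcm7 had 68.8, 37.2, 59.8 and 54.8 CPM in E-Mac 1 to 4, against 93.1, 86.2, 88.1 and 94.7 CPM in Mac 1 to 4. Every E-Mac library was below every Mac library, with E-Mac 2 the lowest (log2 fold change -0.72 ± 0.15, adjusted p = 0.00132). Mcm5 had 91.7, 47.8, 88.6 and 67.6 CPM in E-Mac 1 to 4, against 117, 106, 113 and 112 CPM in Mac 1 to 4. The groups did not overlap, but E-Mac 1 and 3 were nearer to Mac than to E-Mac 2 (log2 fold change -0.60 ± 0.17, adjusted p = 0.0120).

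Mcm4 had 71.7, 53.1, 72.2 and 63.5 CPM in E-Mac 1 to 4, against 77.8, 74.6, 72.7 and 80.8 CPM in Mac 1 to 4. E-Mac 1 and 3 lay just under the lowest Mac library (log2 fold change -0.23 ± 0.093, adjusted p = 0.0465). Mcm2 had 64.2, 38.6, 64.7 and 56.1 CPM in E-Mac 1 to 4, against 50.6, 45.5, 54.7 and 58.7 CPM in Mac 1 to 4. Here E-Mac 1 and 3 were above all Mac libraries and E-Mac 2 was below all of them (log2 fold change 0.091 ± 0.15, adjusted p = 0.617). Mcm3 (-0.017 ± 0.15) and Mcm6 (-0.11 ± 0.15) did not pass, so the 6 subunits of a single ring did not share a call. Mcm4 no longer passed when any 1 of E-Mac 2, E-Mac 4 and the 4 Mac libraries was left out (-0.13, adjusted p = 0.157 without E-Mac 2), nor did Mcm5 without E-Mac 4 (-0.55, adjusted p = 0.0626). Without E-Mac 2, Mcm2 was called higher (0.25, adjusted p = 0.0359).

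None of the 5 licensing genes was lower, and Orc1 and Cdt1 were higher in E-Mac. Their summed level was 107 ± 17.2 CPM in E-Mac and 98.3 ± 4.91 CPM in Mac (SD, n = 4 each). Orc1, the largest subunit of the origin recognition complex, had 4.44, 2.68, 4.31 and 4.10 CPM in E-Mac 1 to 4, against 3.11, 2.16, 1.60 and 1.42 CPM in Mac 1 to 4. Only E-Mac 2 fell within the Mac range, below Mac 1 (log2 fold change 0.90 ± 0.28, adjusted p = 0.0131). Exons of Gm12743 on the opposite strand cover 10.8% of the exon bases of Orc1, and their part in its count was not tested. Cdt1, which brings the MCM ring to origins and is destroyed in S phase, had 53.8, 47.2, 57.5 and 42.4 CPM in E-Mac 1 to 4, against 38.7, 37.5, 38.8 and 45.6 CPM in Mac 1 to 4. E-Mac 1, 2 and 3 were above every Mac library, and E-Mac 4 was below Mac 4 (log2 fold change 0.32 ± 0.10, adjusted p = 0.0164).

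Gmnn, the inhibitor of Cdt1, had 23.7, 15.1, 28.7 and 20.2 CPM in E-Mac 1 to 4, against 26.6, 24.9, 23.7 and 23.7 CPM in Mac 1 to 4. The Mac libraries lay between the lowest and highest E-Mac libraries (log2 fold change -0.17 ± 0.16, adjusted p = 0.366). Cdc6, the ATPase that acts with the origin recognition complex, had 16.1, 11.1, 18.3 and 16.4 CPM in E-Mac 1 to 4, against 17.95, 13.3, 15.2 and 15.3 CPM in Mac 1 to 4, and the groups overlapped throughout (log2 fold change -0.0023 ± 0.15, adjusted p = 0.991). Orc6, the smallest subunit of the complex, did not pass either (-0.089 ± 0.14). Cdt1 no longer passed without E-Mac 3 (0.25, adjusted p = 0.0516), with upper-quartile factors (0.22, adjusted p = 0.0641) or with libraries scaled by total counts only (0.18, adjusted p = 0.157).

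The genes that turn the loaded ring into the active helicase gave calls in both directions. Cdc45, Mcm10 and Gins3 were lower, Gins2 was higher, and Gins1 (-0.23 ± 0.19) and Gins4 (-0.042 ± 0.11) did not pass. Cdc45, the factor that joins MCM2-7 and GINS in the working helicase, had 21.8, 12.5, 21.5 and 19.8 CPM in E-Mac 1 to 4, against 37.3, 37.9, 40.5 and 37.4 CPM in Mac 1 to 4. All E-Mac libraries were well below the narrow Mac range (log2 fold change -1.02 ± 0.14, adjusted p = 4.67e-05). Mcm10, which helps the new helicase to leave the origin, had 20.9, 11.69, 18.7 and 17.6 CPM in E-Mac 1 to 4, against 29.9, 27.5, 26.2 and 29.9 CPM in Mac 1 to 4. The groups did not overlap, and E-Mac 1 came nearest to Mac (log2 fold change -0.72 ± 0.15, adjusted p = 0.000880).

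GINS is a complex of 4 subunits, encoded by Gins1 to Gins4. Gins3 had 5.46, 4.26, 3.84 and 6.47 CPM in E-Mac 1 to 4, against 12.8, 8.99, 11.1 and 8.63 CPM in Mac 1 to 4. All of its E-Mac libraries were below all Mac libraries, and E-Mac 4, not E-Mac 1, was the highest (log2 fold change -1.06 ± 0.19, adjusted p = 3.72e-04). Gins2 had 12.1, 6.81, 10.5 and 8.77 CPM in E-Mac 1 to 4, against 4.35, 5.74, 5.96 and 5.36 CPM in Mac 1 to 4. Every E-Mac library was above every Mac library, and the distance from E-Mac 2 to Mac 3 was small (log2 fold change 0.83 ± 0.19, adjusted p = 0.00188). In the GENCODE M21 annotation of mm10, exons of Gse1 on the opposite strand cover 67.3% of the exon bases of Gins2 (chromosome 8, 120578633 to 120589304, minus strand). With the strand setting of the counting unknown, reads of both genes may not be told apart. Gse1 itself was higher (0.37 ± 0.10, adjusted p = 0.00697). Its highest libraries were E-Mac 4 and E-Mac 2 (78.3 and 74.4 CPM), and those of Gins2 were E-Mac 1 and E-Mac 3. Whether Gse1 reads add to the Gins2 count was not tested.

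Most genes of the PCNA clamp and of the RFC complex that loads it did not pass the test. Their summed level was 369.9 ± 29.5 CPM in E-Mac and 379 ± 5.23 CPM in Mac (SD, n = 4 each). Pcna, the sliding clamp that tethers polymerases to DNA, had 169.6, 121, 168 and 129 CPM in E-Mac 1 to 4, against 149, 169, 161 and 158 CPM in Mac 1 to 4. E-Mac 1 and 3 were close to the highest Mac library and E-Mac 2 and 4 below all Mac libraries (log2 fold change -0.12 ± 0.11, adjusted p = 0.357). Rfc2, a small subunit of the loader, had 97.2, 115, 102 and 116 CPM in E-Mac 1 to 4, against 89.7, 85.0, 84.0 and 88.3 CPM in Mac 1 to 4. It was the only member with E-Mac 2 and 4 as its upper E-Mac libraries and with every E-Mac library above Mac (log2 fold change 0.31 ± 0.072, adjusted p = 0.00231). Exons of Lat2 on the opposite strand cover 15.1% of the exon bases of Rfc2, and whether Lat2 reads add to its count was not tested.

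Rfc1, the large subunit of the loader, had 73.7, 59.1, 68.4 and 73.2 CPM in E-Mac 1 to 4, against 78.0, 77.3, 84.3 and 83.1 CPM in Mac 1 to 4. The groups were close without overlap (log2 fold change -0.23 ± 0.079, adjusted p = 0.0206). Rfc5, a further small subunit, had 29.8, 20.3, 26.7 and 20.8 CPM in E-Mac 1 to 4, against 29.3, 25.6, 27.8 and 29.7 CPM in Mac 1 to 4, with E-Mac 1 level with the highest Mac library and E-Mac 2 and 4 below the lowest (log2 fold change -0.21 ± 0.12, adjusted p = 0.173). Rfc3 (-0.088 ± 0.12) and Rfc4 (-0.10 ± 0.17) did not pass. Rfc1 no longer passed without E-Mac 2 (-0.15, adjusted p = 0.0991), Mac 3 or Mac 4, Rfc2 did not pass with libraries scaled by total counts only (0.17, adjusted p = 0.0663), and Rfc5 was called lower without E-Mac 1 (-0.31, adjusted p = 0.0369).

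Genes of the enzymes that copy and join DNA were mostly lower: Pola1, Prim1, Pold1, Pole, Rpa2 and Lig1 passed the test. The 8 genes summed to 209.6 ± 37.1 CPM in E-Mac and 295 ± 21.7 CPM in Mac (SD, n = 4 each), with a median log2 fold change of -0.68. Prim1, the catalytic subunit of primase, had 14.8, 6.81, 12.5 and 8.48 CPM in E-Mac 1 to 4, against 23.7, 19.8, 22.5 and 26.9 CPM in Mac 1 to 4. E-Mac 2 and 4 were far below Mac, and E-Mac 1 and 3 were also below it (log2 fold change -1.13 ± 0.20, adjusted p = 4.91e-04). Pold1, the catalytic subunit of the lagging-strand polymerase delta, had 39.1, 31.6, 34.8 and 26.9 CPM in E-Mac 1 to 4, against 57.2, 51.5, 54.5 and 62.4 CPM in Mac 1 to 4. The groups were widely apart, and E-Mac 4 rather than E-Mac 2 was the lowest (log2 fold change -0.77 ± 0.11, adjusted p = 4.47e-05).

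Pole, the catalytic subunit of the leading-strand polymerase epsilon, had 17.8, 7.08, 16.2 and 14.5 CPM in E-Mac 1 to 4, against 31.6, 26.7, 26.7 and 29.5 CPM in Mac 1 to 4. All E-Mac libraries were below Mac, and E-Mac 2 was the furthest from the rest (log2 fold change -1.05 ± 0.22, adjusted p = 0.00163). Pola1, the catalytic subunit of polymerase alpha, which extends the primers, had 22.5, 9.28, 23.3 and 18.1 CPM in E-Mac 1 to 4, against 32.1, 32.6, 28.4 and 32.8 CPM in Mac 1 to 4. E-Mac 2 was low, and E-Mac 1 and 3 were nearer to Mac (log2 fold change -0.78 ± 0.23, adjusted p = 0.0123). Lig1, the ligase that seals lagging-strand fragments, had 52.8, 28.5, 49.6 and 41.3 CPM in E-Mac 1 to 4, against 66.5, 57.6, 65.5 and 69.0 CPM in Mac 1 to 4. The groups did not overlap (log2 fold change -0.59 ± 0.16, adjusted p = 0.00725).

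Of the single-strand binding and flap-cutting genes only Rpa2 passed the test. Rpa1, the large subunit of the single-strand binding protein RPA, did not pass (0.087 ± 0.083, adjusted p = 0.385), while Rpa2, its middle subunit, was called lower with overlapping groups (-0.38 ± 0.15, adjusted p = 0.0406). Rpa2 no longer passed without E-Mac 2 (-0.24, adjusted p = 0.127), Mac 1, Mac 2 or Mac 4. Fen1, the flap endonuclease, did not pass (-0.058 ± 0.31, adjusted p = 0.885) at about 2.2 CPM in each group, but exons of Tmem258 and Gm10143 cover 84.2% of its exon bases, so its count is uncertain.

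Of the 5 genes of deoxynucleotide supply 4 were lower in E-Mac, with a median log2 fold change of -1.04 over the 5 and a summed level of 198 ± 48.8 CPM in E-Mac and 345 ± 19.8 CPM in Mac (SD, n = 4 each). Rrm2, the S-phase subunit of ribonucleotide reductase, had 70.5, 38.6, 62.8 and 61.9 CPM in E-Mac 1 to 4, against 126, 112, 125 and 129 CPM in Mac 1 to 4. Its highest E-Mac library was far under its lowest Mac library (log2 fold change -1.07 ± 0.15, adjusted p = 1.01e-04). Rrm1, the large subunit of the same enzyme, had 109, 57.4, 94.6 and 82.0 CPM in E-Mac 1 to 4, against 132, 121, 130.2 and 139.8 CPM in Mac 1 to 4. The groups did not overlap, but E-Mac 1 came near Mac 2 (log2 fold change -0.61 ± 0.16, adjusted p = 0.00638).

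Tk1, the thymidine kinase of cycling cells, had 23.3, 13.8, 21.3 and 15.2 CPM in E-Mac 1 to 4, against 37.3, 35.5, 37.7 and 40.8 CPM in Mac 1 to 4. All E-Mac libraries were well below Mac (log2 fold change -1.04 ± 0.15, adjusted p = 4.59e-05). Tyms, the thymidylate synthase that makes dTMP from dUMP, had 16.9, 7.36, 15.0 and 12.9 CPM in E-Mac 1 to 4, against 24.3, 27.7, 28.4 and 29.5 CPM in Mac 1 to 4. E-Mac 2 was the lowest and E-Mac 1 the highest, still under all Mac libraries (log2 fold change -1.08 ± 0.20, adjusted p = 4.99e-04). Dut, which removes dUTP and provides dUMP, did not pass (-0.21 ± 0.17, adjusted p = 0.319).

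E2f1, E2f2, E2f8, Cdk2 and Ccne2 were lower in E-Mac, and Ccne1 did not pass the test. The 6 genes of this role summed to 224 ± 12.5 CPM in E-Mac and 468 ± 13.9 CPM in Mac (SD, n = 4 each). E2f8, an atypical E2F that represses other E2F targets, had 33.6, 26.2, 32.5 and 27.8 CPM in E-Mac 1 to 4, against 94.7, 78.8, 87.8 and 95.4 CPM in Mac 1 to 4. The E-Mac and Mac ranges lay far apart, and E2f8 was lower by 2.97-fold (log2 fold change -1.57 ± 0.10, adjusted p = 1.66e-08). E2f2, an activating E2F, had 94.8, 94.7, 96.9 and 93.2 CPM in E-Mac 1 to 4, against 219, 215, 221 and 212 CPM in Mac 1 to 4. The 4 E-Mac libraries were nearly level, E-Mac 2 among them, as were the 4 Mac libraries (log2 fold change -1.19 ± 0.058, adjusted p = 1.77e-09).

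Cdk2, the kinase partner of cyclin E, had 52.8, 53.1, 53.8 and 60.2 CPM in E-Mac 1 to 4, against 103, 96.5, 107 and 95.3 CPM in Mac 1 to 4. E-Mac 1, 2 and 3 were nearly level, E-Mac 4 was a little higher, and all were far under Mac (log2 fold change -0.87 ± 0.071, adjusted p = 2.56e-07). E2f1, a further activating E2F, had 25.4, 16.8, 22.6 and 23.3 CPM in E-Mac 1 to 4, against 29.3, 31.1, 32.9 and 33.2 CPM in Mac 1 to 4. The groups did not overlap, and E-Mac 2 was the lowest (log2 fold change -0.52 ± 0.12, adjusted p = 0.00199). Ccne2, cyclin E2, had 10.99, 8.05, 13.2 and 10.9 CPM in E-Mac 1 to 4, against 21.0, 18.8, 17.5 and 18.6 CPM in Mac 1 to 4. Every E-Mac library was below every Mac library (log2 fold change -0.82 ± 0.14, adjusted p = 2.38e-04). Exons of Ints8 on the opposite strand cover 17.4% of the exon bases of Ccne2, and their part in its count was not tested. Ccne1, cyclin E1, had 12.1, 6.81, 13.8 and 12.7 CPM in E-Mac 1 to 4, against 12.4, 8.58, 10.5 and 11.8 CPM in Mac 1 to 4, with the groups overlapping (log2 fold change 0.066 ± 0.20, adjusted p = 0.794).

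**Figure D2:**
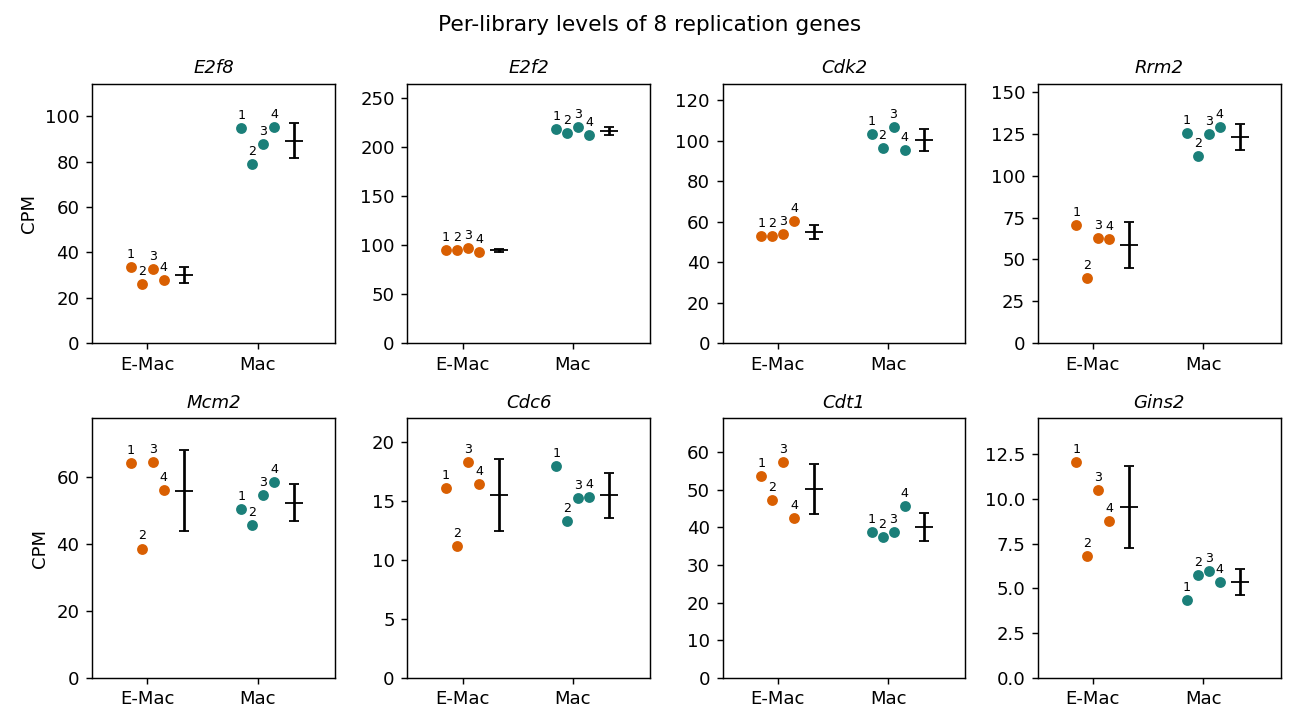
CPM of selected members in each library, E-Mac left of Mac, with points for libraries and bars for the mean and SD of 4 libraries. E2f2, E2f8 and Cdk2 are tight within both groups and far apart between them, whereas Mcm2, Cdc6 and Cdt1 overlap.

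Of the 3 genes that package and mark new DNA, Chaf1a and Uhrf1 were lower and Chaf1b did not pass. Uhrf1, which brings the maintenance DNA methyltransferase to newly copied DNA, had 55.3, 29.5, 49.97 and 47.7 CPM in E-Mac 1 to 4, against 70.4, 60.3, 64.4 and 73.8 CPM in Mac 1 to 4. The groups did not overlap (log2 fold change -0.56 ± 0.16, adjusted p = 0.0108). Chaf1a, the large subunit of the histone chaperone CAF-1, had 25.9, 11.9, 19.7 and 17.8 CPM in E-Mac 1 to 4, against 30.0, 25.6, 27.2 and 29.8 CPM in Mac 1 to 4. E-Mac 1 lay within the Mac range and the other E-Mac libraries below it (log2 fold change -0.59 ± 0.18, adjusted p = 0.0141). Exons of Ubxn6 cover 52.5% of the exon bases of Chaf1a, and Ubxn6 did not pass the test (log2 fold change -0.044, adjusted p = 0.641). Whether Ubxn6 reads add to the Chaf1a count was not tested, so that count is uncertain. Chaf1b, a smaller subunit of CAF-1, had 15.3, 9.22, 16.2 and 13.9 CPM in E-Mac 1 to 4, against 10.7, 13.2, 10.9 and 12.0 CPM in Mac 1 to 4, and the groups overlapped (log2 fold change 0.22 ± 0.16, adjusted p = 0.260). Without E-Mac 2, Chaf1b was called higher (0.39, adjusted p = 0.0151).

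**Figure D3:**
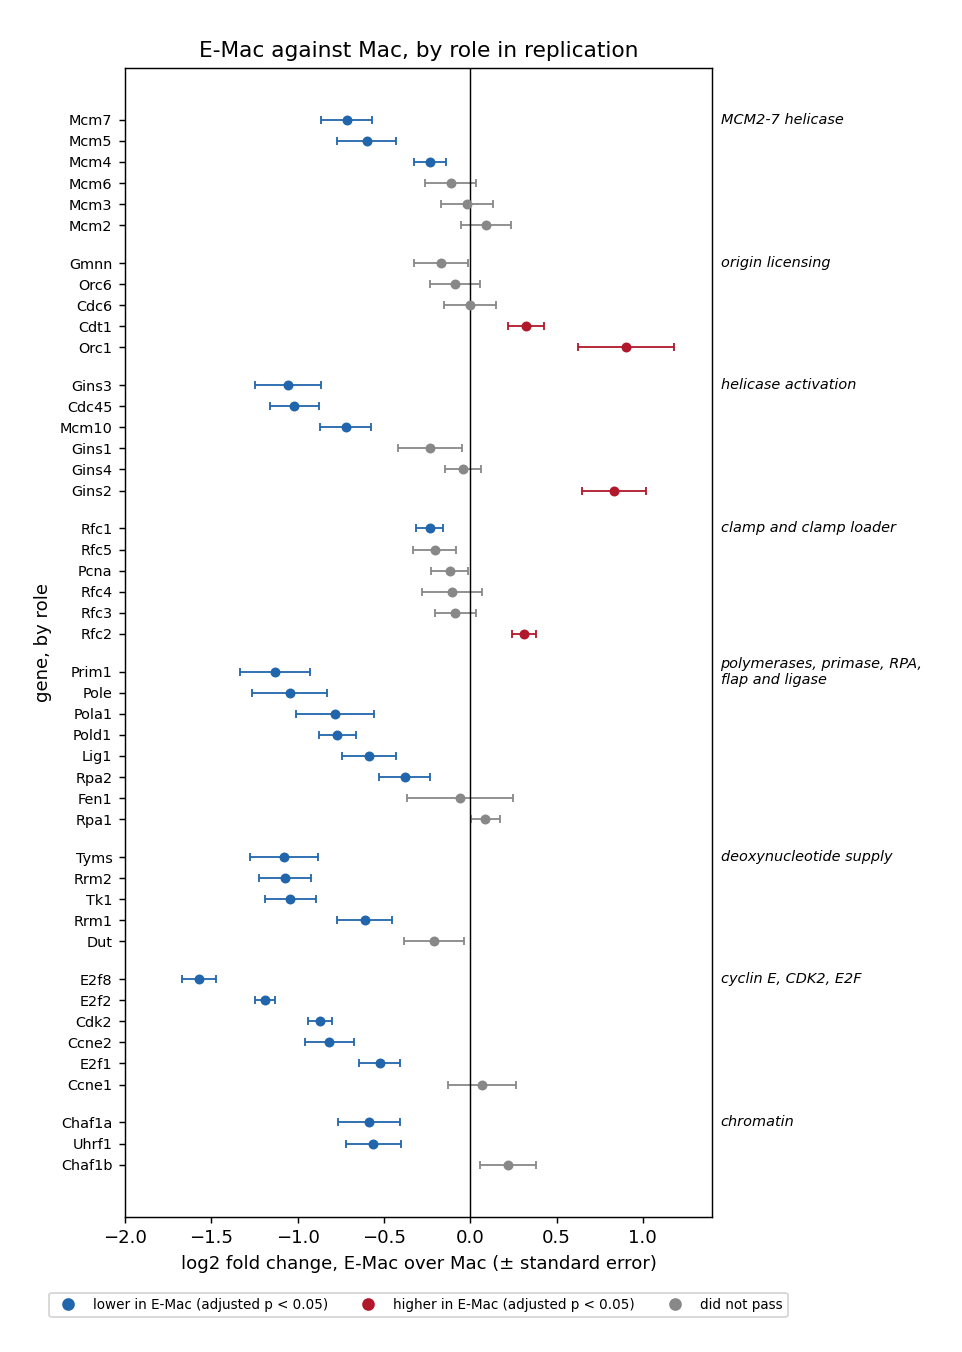
Log2 fold change, E-Mac over Mac, of the 45 genes by role, with bars of 1 standard error. Blue genes were lower and red genes higher at an adjusted p under 0.05, and grey genes did not pass; E2f8 is at -1.57 and Orc1 at 0.90.

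Ratios of RNA counts between related members differed between the groups, and they do not speak to the proteins. For 6 pairs, chosen with earlier results of these data known, the log2 ratio of the counts of both genes was taken in each library, which does not depend on the scaling of the library. In all 6 pairs the groups did not overlap, and each gave p = 0.0286 in an exact two-sided permutation test (0.0286 after Benjamini-Hochberg adjustment over the 6), the smallest p that 4 against 4 libraries can give. Since the pairs were picked from known values, these p are no independent support.

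The log2 ratio of Rrm2 to Rrm1 was -0.62, -0.57, -0.59 and -0.41 in E-Mac 1 to 4, against -0.069, -0.12, -0.059 and -0.11 in Mac 1 to 4. RNA of the S-phase subunit was thus lower relative to that of the large subunit in every E-Mac library (difference -0.46). For Gmnn to Cdt1 the log2 ratio was -1.18, -1.64, -1.0 and -1.07 in E-Mac 1 to 4, against -0.54, -0.59, -0.71 and -0.95 in Mac 1 to 4. RNA of the inhibitor was lower relative to that of its target in E-Mac, although Gmnn alone did not pass the test (difference -0.53). For Ccne1 to Ccne2 it was 0.14, -0.24, 0.065 and 0.23 in E-Mac 1 to 4, against -0.76, -1.13, -0.74 and -0.65 in Mac 1 to 4. Cyclin E1 RNA was thus higher relative to cyclin E2 RNA in every E-Mac library (difference 0.87).

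Gins2 to Gins1, subunits of 1 complex, had a log2 ratio of 0.31, 0.31, 0.31 and 0.52 in E-Mac 1 to 4, against -0.71, -0.67, -0.63 and -0.82 in Mac 1 to 4. Each E-Mac ratio was above each Mac ratio by a wide gap (difference 1.07), with the limit on Gins2 counts given above. For E2f2 to E2f1 it was 1.90, 2.49, 2.10 and 2.0 in E-Mac 1 to 4, against 2.90, 2.78, 2.74 and 2.68 in Mac 1 to 4, and E-Mac 2 was the E-Mac library nearest to Mac (difference -0.65). For Chaf1a to Chaf1b it was 0.76, 0.37, 0.28 and 0.36 in E-Mac 1 to 4, against 1.48, 0.96, 1.31 and 1.31 in Mac 1 to 4, lower in every E-Mac library (difference -0.82). The limit on Chaf1a counts given above applies to this ratio.

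**Figure D4:**
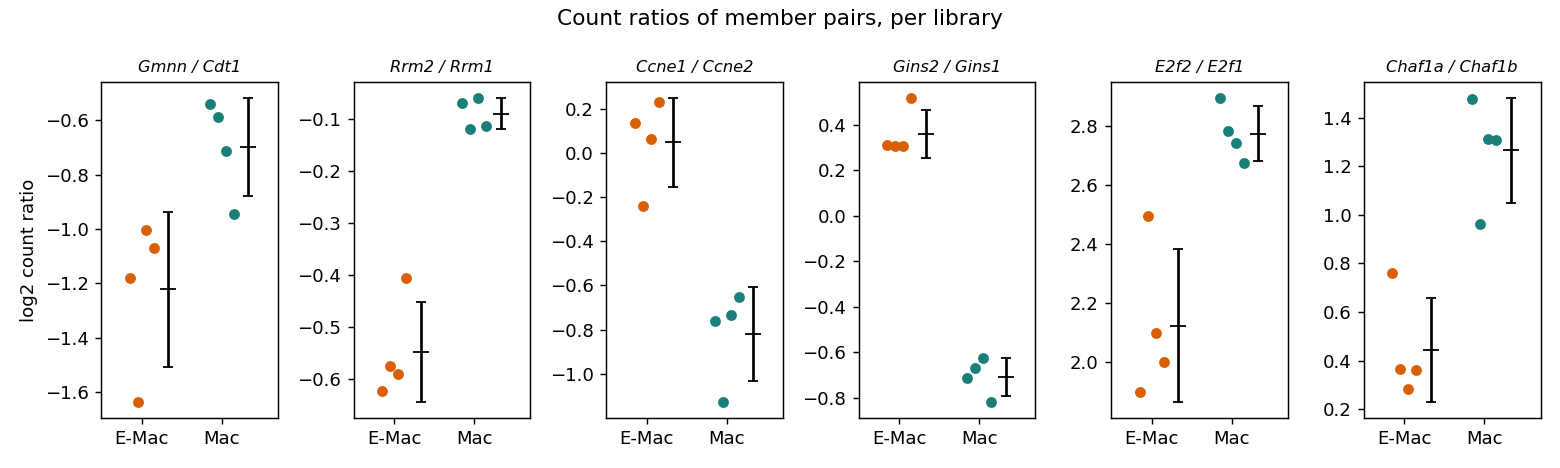
Log2 ratio of the counts of 2 member genes in each library for 6 pairs, E-Mac left of Mac, with the mean and SD of 4 libraries. The groups do not overlap in any pair, and the widest gap is that of Gins2 to Gins1, with a difference of 1.07.

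Per length, in CPM per kilobase of exon, Pcna was the most abundant member in both groups, at 61.1 in E-Mac and 66.3 in Mac. E2f2 was at 19.4 in E-Mac (place 5 of 45 by level) and 44.4 in Mac (place 2), and E2f8 at 5.52 in E-Mac (place 25) and 16.4 in Mac (place 11). Cdt1 was at 16.0 in E-Mac (place 10) and 12.8 in Mac (place 17). Orc1 stood near the bottom in both groups, at 1.12 CPM per kilobase in E-Mac and 0.595 in Mac.

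Other genes of the same process were counted in lists chosen with earlier results of these data known, beside the background shares of 28.8% lower and 29.5% higher. Of 32 other replisome and origin genes, 15 were lower and 1 was higher (median log2 fold change -0.25). Dna2, a nuclease-helicase that trims flaps, was at -1.33 ± 0.072 and Cdc7, the catalytic subunit of the kinase that fires origins, at -1.85 ± 0.14, while Orc2, of the origin recognition complex, was the higher one (0.27 ± 0.11, adjusted p = 0.0418). Of 13 tested replication checkpoint genes, 9 were lower and 0 higher (median -0.40), among them Cdc25a, the phosphatase that activates CDK2 (-1.21 ± 0.10), and Topbp1, a scaffold of origin firing and of ATR activation (-0.70 ± 0.086). Orc2 was no longer called without E-Mac 1, E-Mac 3, Mac 1, Mac 3 or Mac 4, where 0 replisome genes were higher, nor with library size only, upper-quartile factors or the replicate number as a block. Without E-Mac 4, 2 replisome genes were called higher, and without E-Mac 2, 3 replisome genes and 1 checkpoint gene.

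The other E2F, DP, RB and MuvB genes were 13 lower and 2 higher of 19 (median -0.49). Tfdp2, a dimerization partner of E2F, was at -2.11 ± 0.16 and Rbl1, the pocket protein p107, at -0.90 ± 0.075. E2f3, an activating E2F (0.59 ± 0.12), and E2f4, the main repressive E2F of resting cells (0.34 ± 0.071), were the 2 higher ones. Of the 13 lower genes, Ccna2, Fbxo5, Skp2 and Cks1b are other cell cycle regulators and not members of these families. Of 14 further genes of replication-coupled chromatin 6 were lower and 2 higher (median -0.093). The paralogous histone chaperones Asf1b (-1.45 ± 0.13) and Asf1a (0.58 ± 0.12) were called in opposite directions. Mms22l, which acts at stalled forks (-1.01 ± 0.11), was lower and Hat1, which acetylates new histone H4 (0.37 ± 0.091), was higher. Without E-Mac 2, 4 of these chromatin genes were called higher, and with library size only 1.

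Of 25 other nucleotide synthesis genes 14 were higher and 2 lower in E-Mac, with a median log2 fold change of 0.40 over the 25. The 5 dNTP supply genes above gave 0 higher and 4 lower. For the list of 25 genes the lower count was 1 without E-Mac 2, Mac 1, Mac 2 or Mac 4. With upper-quartile factors that count was 5, and with library size only 6. Cad, which starts pyrimidine synthesis, had 40.6, 25.1, 35.1 and 31.6 CPM in E-Mac 1 to 4, against 17.9, 16.4, 20.9 and 20.9 CPM in Mac 1 to 4. All E-Mac libraries lay above Mac (log2 fold change 0.79 ± 0.14, adjusted p = 3.01e-04). By contrast Dguok, the mitochondrial deoxyguanosine kinase (-0.60 ± 0.11, adjusted p = 3.86e-04), and Dtymk, which makes dTDP (-0.36 ± 0.12, adjusted p = 0.0241), were lower. The 14 higher genes include a pair that break dNTPs down, named after their values were seen: Samhd1 (0.35 ± 0.086, adjusted p = 0.00335) and Dctpp1 (0.44 ± 0.16, adjusted p = 0.0275).

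All 24 genes of the G2 and mitosis list were lower in E-Mac, each by 2-fold or more, with a median log2 fold change of -1.66 (range -2.21 to -1.35). Their sum was 1119, 528, 948 and 769 CPM in E-Mac 1 to 4, against 2821 to 3047 CPM in Mac. Kif23, a kinesin of cytokinesis, was at -2.09 ± 0.13 and Cdc20, the activator of the anaphase-promoting complex, at -1.64 ± 0.12. Of the 45 replication genes only E2f8 had a log2 fold change in the range of the mitotic genes. The order of the E-Mac libraries was the same in both sums, E-Mac 1 the highest and E-Mac 2 the lowest. The difference between the lists was not tested.

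**Figure D5:**
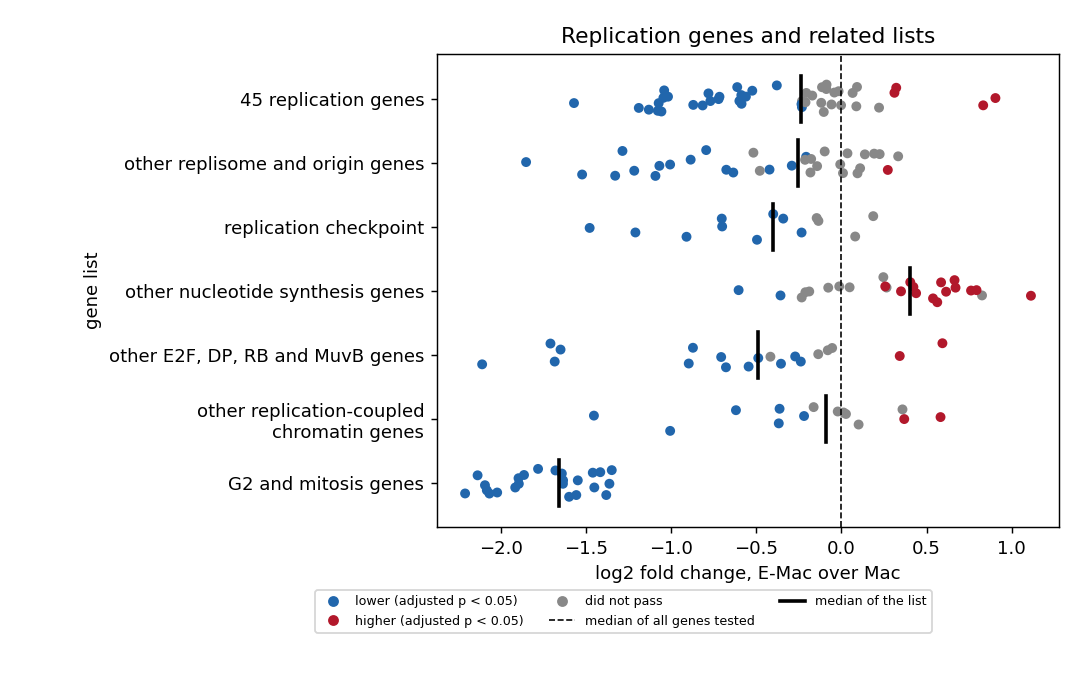
Log2 fold change, E-Mac over Mac, of the 45 replication genes and of 6 related lists, 1 point per tested gene, with the median of each list as a black bar and the median of all genes tested as a dashed line. The medians run from -1.66 for G2 and mitosis genes to 0.40 for other nucleotide synthesis genes.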

How the data were processed

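The authors deposited 1 table of raw counts per gene symbol for 8 libraries. HISAT2, featureCounts, Subread, bcl2fastq and DESeq2 are named, with no version, in the submitters' processing notes, as is the build mm10. Which annotation, strand and multi-mapping settings were used was not given in the sources used here. Counts of overlapping genes may therefore be missing or shared. RNA had been prepared with a column kit with DNase and made into polyA libraries, per the labels' protocols.

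Of 53673 names, 26 in the form of dates were left out. The test was that of edgeR 4.0.16 (R 4.3.3) on the counts, keeping genes that passed filterByExpr at a count of 10 and a total of 15, with TMM scaling, a quasi-likelihood fit with the robust option, the group as the term, and p-values adjusted by Benjamini-Hochberg over the genes tested. The steps were tested on simulated data. CPM used TMM-scaled totals of the tested genes. The members, lists and pairs were chosen with earlier results of these data known. Per-library values went to the 3 members of each role with the smallest adjusted p, to members called against the other calls of their role, and to 20 genes named whatever their values; of each list, the 2 lowest adjusted p per direction were named, and of marker lists the 2 most abundant genes. Some genes that this rule names are not reported here. The alternative tools were DESeq2 1.42.0 and limma-voom (limma 3.58.1). Further alternatives were RLE or upper-quartile scaling, scaling by library size alone, genes unfiltered or with 10 CPM or more in 4 libraries, the fit without its robust option, the replicate number as a block, a threshold of 0.01, each library left out, and E-Mac 2 and 4 left out. Ratios used counts plus 0.5. Exon lengths came from GENCODE M21, promoters from RefSeq (GRCm38.p6). No pair of libraries within a group agreed within sampling noise. Intervals for single counts were not computed, and members with few counts (Fen1) are the least precise.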

Additional observations from a re-analysis of the deposited data

Results flagged for a closer look

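A library stood apart from the other 3 of its group in 10 of 148 groups of 4 values looked at, and chance gives about 1 in 20. In E-Mac, Cdk2 was at 60.2 CPM in E-Mac 4 against 52.8 to 53.8 in the others. The early granulocyte precursor markers summed to 317 CPM in E-Mac 2 against 484 to 496 in the other E-Mac libraries. The log2 ratio of Gins2 to Gins1 was 0.52 in E-Mac 4 and 0.31 in each of the other E-Mac libraries.

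In Mac, Cdt1 was at 45.6 CPM in Mac 4 against 37.5 to 38.8 in the others, which is the library that makes the groups overlap for that gene. Gins1 was at 7.14 CPM in Mac 1 against 9.16 to 9.49. Rfc3 was at 13.2 CPM in Mac 2 against 13.8 to 13.9, and Pola1 at 28.4 CPM in Mac 3 against 32.1 to 32.8. The clamp and clamp loader genes summed to 371 CPM in Mac 1 against 381 to 382. The stromal markers summed to 4.66 CPM in Mac 2 against 7.34 to 7.43, and the T and NK cell markers to 20.9 CPM in Mac 1 against 15.9 to 16.7. No cause was tested for any of them.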

How the results depend on the processing

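The number of members called lower was 24 and ran from 17 (threshold of 0.01) to 26 (library size only), and from 21 to 25 with single libraries left out. With no filter it was 18, and Mcm4, Mcm5, Rfc1, Rrm1, Pola1 and Uhrf1 no longer passed. The number called higher was 4, with 3 to 6 when single libraries were left out. It was 2 with library size only, 2 with at least 10 CPM in 4 libraries (which tests 40 members), 2 at a threshold of 0.01 and 8 without E-Mac 2 and E-Mac 4, where Mcm2, Mcm3, Rpa1 and Chaf1b were added. Of the 24 lower calls 16 held, with their direction, under every alternative that tested the gene, as did 1 of the 4 higher calls (Gins2). Gins2 and Gins3, the latter among these lower calls, were not tested with at least 10 CPM in 4 libraries. Higher genes were 50.6% of all calls with TMM factors, 37.4% with library size only and 41.8% with upper-quartile factors; the median log2 fold change of all genes was -0.15 with library size only and -0.0030 with TMM factors. With library size only Pcna (-0.26) and Rfc5 (-0.35) were also called lower.

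Signs turned only in members that did not pass the test in the full data. Without E-Mac 2 and E-Mac 4 the log2 fold change was 0.24 for Mcm3 (called), 0.11 for Mcm6, 0.14 for Orc6, 0.16 for Cdc6, 0.10 for Gmnn, 0.065 for Gins1, 0.12 for Gins4, 0.091 for Pcna, 0.066 for Rfc3, 0.18 for Rfc4, 0.0095 for Rfc5 and 0.059 for Fen1. With upper-quartile factors it was -0.0060 for Mcm2, -0.0094 for Rpa1 and -0.031 for Ccne1, and with library size only -0.051, -0.057 and -0.077. With no filter it was 0.012 for Mcm3 and 0.028 for Cdc6, and with DESeq2 0.00038 for Cdc6. With single libraries left out it ran from -0.12 to 0.14 for Mcm3, -0.23 to 0.044 for Mcm6, -0.17 to 0.027 for Orc6, -0.090 to 0.15 for Cdc6, -0.12 to 0.026 for Gins4, -0.24 to 0.050 for Rfc4, -0.30 to 0.19 for Fen1 and -0.040 to 0.27 for Ccne1. The cause was not tested. All 6 ratio differences kept their sign under each alternative run.

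No sign of pairing by replicate number was seen: same-numbered libraries had correlations of -0.093 to 0.020 in their deviations from the group means. Not every library correlated best with its own number. With so few libraries per group, these correlations cannot show that the samples were unpaired. With the number as a replicate block 7458 genes, 23 members lower and 4 members higher were called, and the exact sign-flip test of the ratios cannot go below 0.125.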
